A study of Homo sapiens with 12 samples.

Results

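The 10 genes described here are NFE2L2, which encodes the transcription factor NRF2, and 9 genes of antioxidant defence, selective autophagy and iron storage that NRF2 is known to control: HMOX1, NQO1, GCLC, GCLM, TXNRD1, SRXN1, SQSTM1, FTL and FTH1. They were taken by symbol from 3 tables of gene expression that list 16489, 18215 and 55744 gene names, and all 10 are in each table. In the triple-negative breast cancer line MDA-MB468, 7 of the 10 transcripts were at least 1.5-fold higher after 24 h with XY018 at 2.5 µM, led by SQSTM1 (4.71-fold), FTL (4.26-fold), GCLC (3.27-fold) and FTH1 (2.88-fold), where 14.1% of all genes compared were higher. In the triple-negative line HCC70, none of the 10 passed 1.5-fold with the same treatment, which is near the background there, since 2.62% of all genes were higher and 3.25% lower.

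XY018 and GSK805 are antagonists of RORγ, a nuclear receptor, and atorvastatin (ATV) is a statin, an inhibitor of HMG-CoA reductase. The labels give no genotype or clone beyond the line, and HCC70 was cultured in RPMI with serum. For MDA-MB468 the sources differ: the labels give RPMI with serum and insulin, and the study's methods give DMEM with serum and name no insulin for this line. The HCC70 libraries and the first set of MDA-MB468 libraries were each made from cells given vehicle, XY018 at 1.25 µM, XY018 at 2.5 µM, ATV at 1.25 µM, or XY018 at 1.25 µM together with ATV at 1.25 µM. A second MDA-MB468 set held its own vehicle and GSK805 at 2.5 µM. Each of the 12 conditions was 1 RNA-seq library, with the vehicles of the MDA-MB468 sets counted apart because their tables were normalized separately. No value has a replicate within its table, so no test between conditions was made and no p-value is given. Levels were read as FPKM, a unit taken from the study's methods and the spacing of the values because the table headers name none: fragments scaled to transcript length and to the mapped fragments of the library, and changes are log2 ratios of treated to vehicle FPKM within a table, with 0.1 added to both.

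Library depth, read from the steps between low FPKM values, came to between 9030000 and 9920000 fragments in HCC70, between 17720000 and 19580000 in the first MDA-MB468 set, with estimates of 8320000 and 8640000 in the GSK805 set. The 95% intervals printed with ratios below are exact Clopper-Pearson intervals on the fragment numbers these depths give. Those of the differences between XY018 and GSK805 are a normal approximation on the same numbers. They cover counting error only, not the spread between cultures.

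Marker levels were read beside the triple-negative name of both lines, with no receptor-positive library or cutoff to judge it by. PGR was at 0 FPKM in the 7 MDA-MB468 libraries and not listed for HCC70. ESR1 lay between 0.37 and 5.67 FPKM and ERBB2 between 25.3 and 57.7 FPKM. Both were highest with GSK805, where ESR1 went from 1.77 to 5.67 FPKM and ERBB2 from 35.2 to 57.7 FPKM. The 4 epithelial markers were above 1 FPKM in every library, EPCAM between 58.8 and 153 FPKM, and so were the 4 basal markers except KRT14, which went from 4.63 to 0.45 FPKM with XY018 at 2.5 µM in MDA-MB468. The sums of both lists were lower with some treatments. In MDA-MB468 the epithelial sum went from 1715.13 to 1100.15 FPKM with XY018 at 2.5 µM, mostly through KRT8 (917.75 to 467.8 FPKM), and from 1675.95 to 934.44 FPKM with GSK805, while in HCC70 it was 796.42 and 793.13 FPKM. The basal sum went from 1178.78 to 753.27 FPKM in MDA-MB468 and from 1094.52 to 638.73 FPKM in HCC70 with XY018 at 2.5 µM. KRT5 went from 112.44 to 40.25 and from 659.77 to 354.7 FPKM, and EGFR from 944.12 to 638.08 and from 47.95 to 48.41 FPKM. With GSK805 the basal sum went from 1235.48 to 1149.26 FPKM. There KRT5 (498 to 318 FPKM), KRT14 and KRT17 were lower and EGFR was higher (617 to 741 FPKM). Of the markers of other cell types, CD3E (T cells) did not pass 0.14 FPKM, VWF and PECAM1 (endothelium) 0.04 and 1.21 FPKM, and PDGFRB, COL1A2 and THY1 (fibroblasts) 0.65, 0.07 and 0.03 FPKM. The fibroblast gene COL1A1 lay between 3.84 and 17.2 FPKM and went from 4.96 to 8.21 FPKM with XY018 at 2.5 µM in MDA-MB468 and from 10.4 to 17.2 FPKM with GSK805. CD14, often used as a monocyte marker, was at 170.01 FPKM with vehicle and 419 FPKM with XY018 at 2.5 µM in HCC70, at 17.86 and 7.33 FPKM in MDA-MB468, and at 93.7 FPKM with vehicle and 51.8 FPKM with GSK805, while the pan-leukocyte gene PTPRC did not pass 1.06 FPKM in any library. The part of these changes in the results below was not tested. In RNA from whole cultures, fewer cells that express a gene and less RNA of it in each cell cannot be told apart.

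NRF2 is held low by KEAP1, an adaptor that hands it to a CUL3 ubiquitin ligase. When KEAP1 is modified by electrophiles or bound by the autophagy receptor p62, the product of SQSTM1, NRF2 escapes, enters the nucleus with a small MAF protein and binds antioxidant response elements, while BACH1 competes for those sites. Ferritin, a shell of heavy (FTH1) and light (FTL) chains, stores iron, and its synthesis is also held back at translation by iron regulatory proteins that bind a stem-loop near the start of both mRNAs, so mRNA levels do not measure ferritin protein.

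Because the genes are grouped by this factor, their upstream DNA was searched for the 9-letter core TGACTCAGC on both strands within 5000 bases before the transcript start (MANE Select transcript, GRCh37). The first letters of the core, TGACTCA, are also the site of AP-1 (FOS and JUN). The core was found for 6 of the 10 genes and for 1227 of 18922 annotated genes (6.48%). Each sequence below is 29 bases, written 5′ to 3′ on the strand that reads the core, with the core in capitals.
SQSTM1, nearer site: ggcctggccaTGACTCAGCaatatcctca
SQSTM1, farther site: tggccaagcgTGACTCAGCagcccaggcg
GCLC: cgcctccccgTGACTCAGCgctttgtgcg
FTL: gagctcagcaTGACTCAGCagtcgctgcc
FTH1: tgtcccaccgTGACTCAGCactctgctag
NQO1: gcagtcacagTGACTCAGCagaatctgag
HMOX1: gaggcactggTGACTCAGCaaaatctagc

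The SQSTM1 sites lie on the minus strand at chr5:179247543-179247571 and chr5:179246575-179246603, 344 and 1312 bases before the start and in an intron of longer SQSTM1 transcripts. The GCLC site, at chr6:53413037-53413065 on the plus strand, is 3148 bases before the start and in an intron of longer GCLC transcripts. The FTL site (chr19:49467189-49467217, plus strand) is 1359 bases and the FTH1 site (chr11:61739505-61739533, plus strand) 4409 bases before the start, both between annotated genes. The NQO1 site (chr16:69760900-69760928, minus strand) is 447 bases before the start, in an exon of the divergent non-coding gene NQO1-DT. The HMOX1 site (chr22:35773139-35773167, minus strand) is 3932 bases before the start, in an exon of a non-coding gene. No such core was found in this window for NFE2L2, TXNRD1, GCLM or SRXN1. The looser letters TGACNNNGC were searched on both strands of the 300-base RefSeq promoters (GRCh38.p14, 250 bases before to 50 after the start). They were found in 13.3% of 35116 promoters. The 8 members with an entry have 12 promoters, and the letters were found for GCLM and TXNRD1.

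The iron-responsive stem-loop of the ferritin chains was searched as a bulged C, any 5 bases, and a loop of CAGTG and a last letter other than G, on the sense strand of the first 200 bases of each transcript. Of the 10 genes only FTL and FTH1 held it, against 874 of 18922 transcripts (4.62%). Each is shown as 30 bases of the 5′ untranslated region in DNA letters, with the loop in capitals.
FTL: tctcttgcttcaaCAGTGTttggacggaac
FTH1: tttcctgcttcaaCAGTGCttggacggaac
The FTL element is at chr19:49468591-49468620 on the plus strand and starts at base 26 of the transcript. The FTH1 element is at chr11:61735046-61735075 on the minus strand and starts at base 32. A match to any of these letters describes the sequence and not binding.

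FTH1 was the most abundant of the 10 transcripts in all 3 vehicle libraries, at 5378.42 FPKM in HCC70 and at 4269.94 and 5965.33 FPKM in the MDA-MB468 sets. FTL came next in each, but at 2924.76 FPKM in HCC70 and at 272.43 and 233.557 FPKM in MDA-MB468. SQSTM1 had rank 3 in both MDA-MB468 vehicles (181.94 and 207.314 FPKM) and rank 4 in HCC70 (119.92 FPKM), after NQO1, the quinone reductase (146.57 FPKM). HMOX1, the inducible heme oxygenase, was the lowest in both MDA-MB468 vehicles (9.46 and 10.1468 FPKM) and stood at 30.5 FPKM in HCC70, where SRXN1, which repairs over-oxidised peroxiredoxins, was the lowest (14.84 FPKM). These levels are set side by side only, since the 3 tables were normalized separately.

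**Figure D1:**
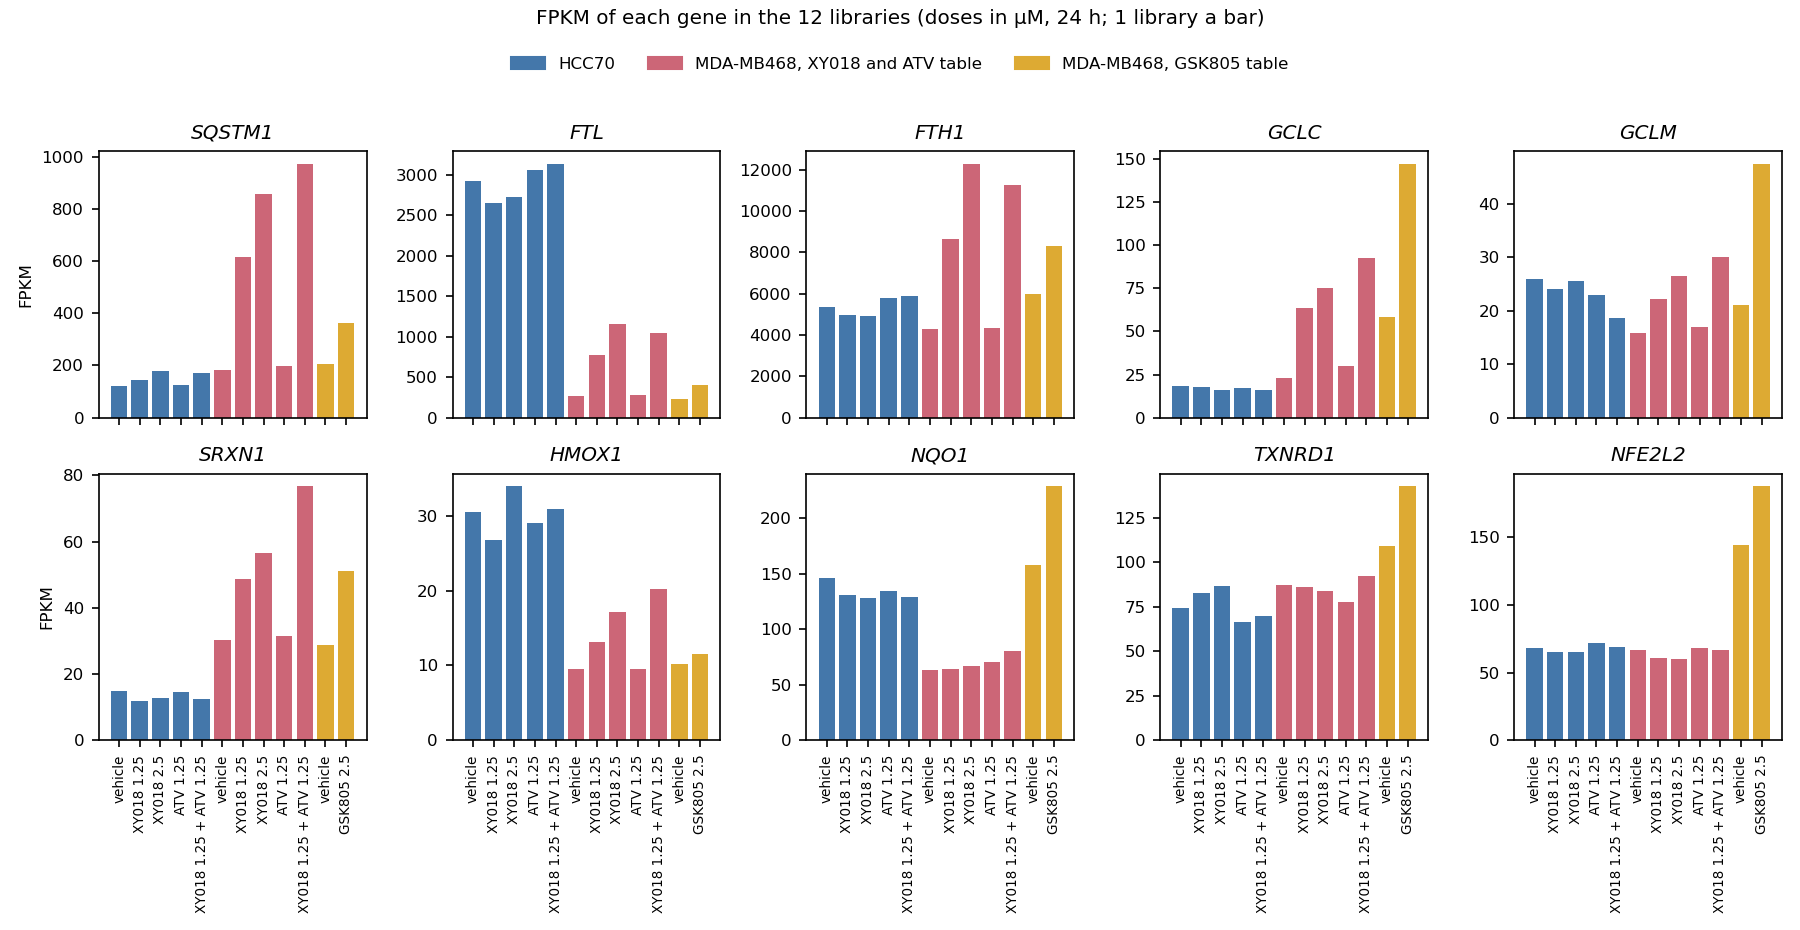
FPKM (vertical axis, linear from 0, a scale for each gene) of the 10 genes in the 12 libraries, 1 bar a library, coloured by table, with no error bar because each condition is 1 library. For SQSTM1, FTL, FTH1, GCLC, GCLM, SRXN1 and HMOX1 the 3 MDA-MB468 libraries with XY018 stand above vehicle and ATV, while in HCC70 no bar is 1.5-fold from vehicle, with SQSTM1 nearest at 1.49-fold.

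In MDA-MB468, XY018 at 2.5 µM was compared with vehicle to ask how the antagonist changed these transcripts. Of the 10 genes, 7 were higher by 1.5-fold and 0 were lower, where 14.1% of the 11919 genes compared were higher and 14.4% lower. The median log2 ratio of the 10 was 0.87, beside 0.0019 over all genes compared. All 10 genes passed the filter of 1 FPKM in a library of the pair, in this and each other comparison.

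SQSTM1 (chr5:179247905-179265078, plus strand, 8 exons, GRCh37), the selective autophagy receptor p62, was at 181.94 FPKM with vehicle, 196.88 with ATV, 617.48 with XY018 at 1.25 µM, 858.23 with XY018 at 2.5 µM and 973.19 with both compounds. The 3 libraries with XY018 were all above the 2 without it, and the lowest of them was 3.39-fold over vehicle. At 2.5 µM its log2 ratio was 2.24 (95% interval 2.21 to 2.27), above that of 99.56% of the genes compared. The exons of SQSTM1 overlap MRNIP on the other strand, and the library kit does not mark strand. MRNIP (listed as C5orf45) was at 5.53 to 7.15 FPKM in these 5 libraries, highest with ATV. Its part in the SQSTM1 ratios was not tested.

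The ferritin light chain FTL (chr19:49468566-49470136, plus strand, 4 exons) was at 272.43 FPKM with vehicle, 275.66 with ATV, 771.86 with XY018 at 1.25 µM, 1159.74 at 2.5 µM and 1042.18 with both. The heavy chain FTH1 (chr11:61731757-61735106, minus strand, 4 exons), the ferroxidase subunit, was at 4269.94, 4325.92, 8631.41, 12298.38 and 11282.5 FPKM in the same order. Both chains had their highest value with XY018 at 2.5 µM and nearly equal values with vehicle and ATV. At 2.5 µM the log2 ratio of FTL was 2.09 (2.04 to 2.14) and that of FTH1 was 1.53 (1.52 to 1.54). FTH1 was the transcript with the highest FPKM of all genes in each of these 5 libraries, and its share of the summed FPKM went from 0.993% with vehicle to 2.75% with XY018 at 2.5 µM. BEST1, whose exons overlap FTH1 on the other strand, was at no more than 0.51 FPKM in these libraries and 2.63 FPKM in any. Its part in the FTH1 ratios was not tested.

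Glutathione is made from glutamate and cysteine by glutamate-cysteine ligase, whose catalytic subunit is GCLC and whose modifier subunit is GCLM. GCLC (chr6:53362139-53409899, minus strand, 16 exons) was at 22.93 FPKM with vehicle, 29.74 with ATV, 63.34 and 75.09 with XY018 at 1.25 and 2.5 µM, and 92.78 with both. GCLM (chr1:94350755-94374986, minus strand, 7 exons) was at 15.82, 16.88, 22.13, 26.57 and 30.13 FPKM in that order. Both subunits were lowest with vehicle and highest with the 2 compounds together. The exons of GCLC overlap the non-coding gene GCLC-AS1 over 252 bases on the other strand. The part of GCLC-AS1 in the GCLC ratios was not tested. The log2 ratio of GCLC at 2.5 µM XY018 was 1.71 (1.63 to 1.79), and that of GCLM was 0.74 (0.65 to 0.84).

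SRXN1 (chr20:627259-633844, minus strand, 2 exons) was at 30.32 FPKM with vehicle, 31.49 with ATV, 48.63 and 56.46 with XY018 at 1.25 and 2.5 µM, and 76.69 with both. Its exons are shared over 2292 bases with a read-through gene on the same strand, so its counts may be split. HMOX1 (chr22:35777089-35790200, plus strand, 5 exons) was at 9.46, 9.5, 13.16, 17.11 and 20.17 FPKM in that order. Both genes passed 1.5-fold at 2.5 µM, SRXN1 at 1.86-fold (log2 ratio 0.89, 0.80 to 0.99) and HMOX1 at 1.80-fold (0.85, 0.64 to 1.07), and HMOX1 had not at 1.25 µM (1.39-fold).

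NFE2L2, NQO1 and TXNRD1, the cytosolic thioredoxin reductase, stayed within 1.5-fold of vehicle in all 4 comparisons of this table. NFE2L2 (chr2:178095036-178129455, minus strand) was at 66.71 FPKM with vehicle and between 60.07 and 68.46 FPKM in the treated libraries. NQO1 (chr16:69743304-69760463, minus strand) was at 63.14 FPKM with vehicle and between 64.44 and 80.63 FPKM with treatment, and TXNRD1 (chr12:104609557-104744085, plus strand) at 87.27 FPKM and between 77.68 and 92.54 FPKM. Exons of NQO1 and NFE2L2 overlap non-coding genes on the other strand, over 347 and 190 bases, and the part of those genes was not tested. The RNA of NFE2L2 does not measure NRF2 protein, which KEAP1 controls after translation.

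**Figure D2:**
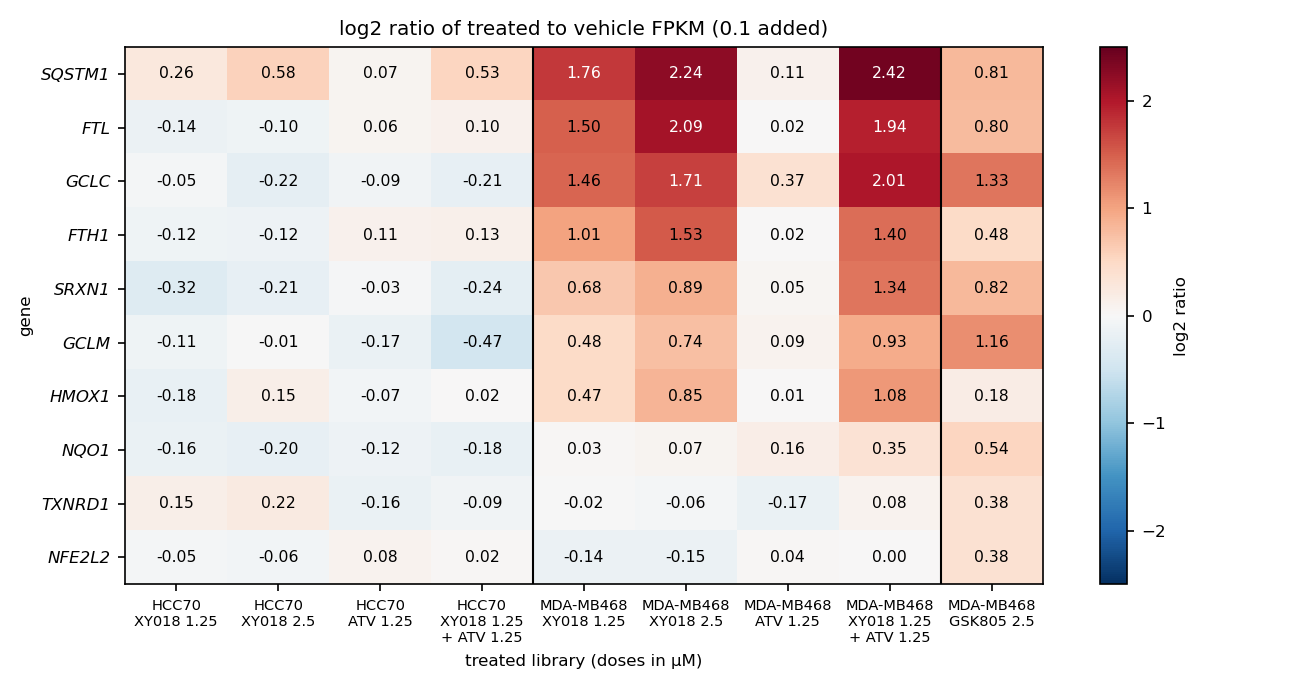
Log2 ratio of treated to vehicle FPKM (0.1 added; colour and printed number) for the 10 genes (rows, ordered by their highest value) in the 9 comparisons (columns, doses in µM), with black lines between the 3 tables. The red block is the MDA-MB468 libraries with XY018 and, more weakly for most of its genes, GSK805, and the highest HCC70 value is 0.58 for SQSTM1.

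At 1.25 µM XY018 in MDA-MB468, 5 of the 10 genes were already higher by 1.5-fold (SQSTM1, FTL, GCLC, FTH1 and SRXN1) and 0 were lower, with 9.73% of genes higher and 8.38% lower among the 11844 compared. Between 1.25 and 2.5 µM, 8 of the 10 log2 ratios went up, with a median step of 0.25, where 46.9% of 11774 genes went up, and the counting interval of the step lay above 0 for 7 and below 0 for none. FTL had the largest step, 0.59 (0.55 to 0.62), followed by FTH1 at 0.51 (0.50 to 0.52) and SQSTM1 at 0.47 (0.45 to 0.50). The steps of NFE2L2, NQO1 and TXNRD1 had intervals that spanned 0. In HCC70 the median step was 0.055, and 6 of the 10 went up where 47.2% of 11684 genes did, with 3 intervals above 0 (SQSTM1, HMOX1 and FTL) and 1 below (GCLC).

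ATV alone changed none of the 10 genes by 1.5-fold in MDA-MB468, where 1.37% of the 11710 genes compared were higher and 0.794% lower. Its median log2 ratio over the 10 was 0.046. GCLC came nearest, at 1.30-fold (log2 ratio 0.37, 0.28 to 0.47), which was above 96.64% of the genes compared.

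With XY018 at 1.25 µM and ATV together, the same 7 genes as with XY018 at 2.5 µM were higher and 0 were lower, with 13.1% of 11906 genes higher and 12.1% lower. The median log2 ratio of the 10 was 1.21. Against XY018 at 1.25 µM alone, all 10 genes were higher with ATV added, with a median log2 difference of 0.44 and each counting interval above 0, from 0.10 (0.053 to 0.15) for TXNRD1 to 0.66 for SQSTM1 and SRXN1, where 45.9% of 11792 genes were higher, with a median of -0.016. The log2 ratio of the combination was above the sum of the 2 single log2 ratios for 10 of 10 genes, by a median of 0.36 and by the most for HMOX1 (0.61) and SRXN1 (0.60). Among 11994 genes at 1 FPKM or above in a library of the 4, 48.0% were above the sum, with a median of -0.011. Against XY018 at 2.5 µM, 8 genes were higher with the combination and the ferritin chains FTL and FTH1 were lower, where 50.5% of 11792 genes were higher. In HCC70 the combination was above the sum for 6 of 10 genes, by a median of 0.10, and for 49.9% of 11944 genes. Within each line the ratios and sums share 1 vehicle library, and each value rests on 1 library per condition.

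**Figure D3:**
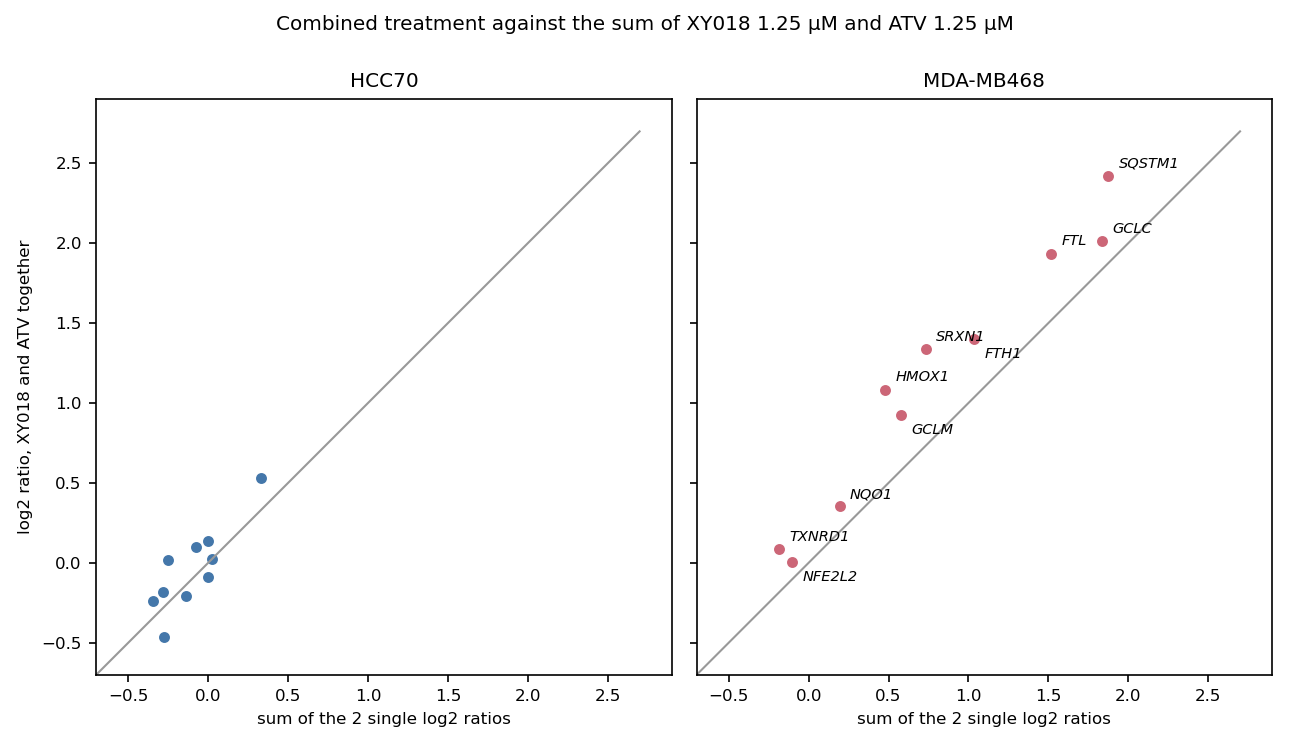
Log2 ratio to vehicle with XY018 1.25 µM and ATV 1.25 µM together (vertical axis) against the sum of the log2 ratios of the 2 compounds alone (horizontal axis), 1 point a gene, HCC70 left and MDA-MB468 right. The grey line marks equal values, and the 10 MDA-MB468 points lie above it, whereas 6 of the 10 HCC70 points do.

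In HCC70, 0 of the 10 genes were higher and 0 lower by 1.5-fold in any of the 4 comparisons. With each pair rescaled to a median log2 ratio of 0, 1 gene passed with XY018 at 2.5 µM (SQSTM1, log2 ratio 0.60). Among all genes compared, 1.93% were higher and 2.64% lower with XY018 at 1.25 µM, 2.62% and 3.25% at 2.5 µM, 2.21% and 1.32% with ATV, and 4.38% and 2.94% with both. The medians of the 10 log2 ratios were -0.11, -0.082, -0.048 and -0.034 in that order.

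SQSTM1 had the largest ratio of the 10 genes in HCC70. It was at 119.92 FPKM with vehicle, 126.32 with ATV, 143.29 and 178.85 with XY018 at 1.25 and 2.5 µM, and 172.93 with both. The 3 libraries with XY018 were again above the 2 without it. At 2.5 µM it was at 1.49-fold (log2 ratio 0.58, 0.51 to 0.64), just under the threshold and above 97.32% of the genes compared, against 4.71-fold in MDA-MB468. The overlapping MRNIP was at 7.76 FPKM with vehicle, 10.13 with ATV, 8.26 and 12.15 with XY018 at 1.25 and 2.5 µM, and 12.6 with both. It was thus higher with SQSTM1 in this line, and its part in that ratio was not tested. Of the 40 HCC70 log2 ratios of the 10 genes, 37 were within 0.32 of 0. Beyond it were SQSTM1 at 2.5 µM and with both compounds, and GCLM with both. The counting interval lay above 0 for 10 of the 40 and below 0 for 16. FTH1 ranged from 4938.27 to 5898.85 FPKM over the 5 libraries, FTL from 2650.36 to 3135.73 FPKM, GCLC from 15.76 to 18.42 FPKM and HMOX1 from 26.83 to 33.95 FPKM. The lowest log2 ratio was that of GCLM with both compounds, -0.47 (-0.59 to -0.34), where its level was 18.7 FPKM against 25.9 FPKM with vehicle.

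GSK805 was compared with its own vehicle in MDA-MB468. Of the 10 genes, 5 were higher by 1.5-fold (GCLC, GCLM, SRXN1, SQSTM1 and FTL) and 0 lower, where 17.6% of 19951 genes were higher and 16.6% lower. The median log2 ratio of the 10 was 0.67, and each of the 10 was above 0. GCLC went from 58.3047 to 147.29 FPKM (2.52-fold) and GCLM from 21.1471 to 47.4851 FPKM (2.24-fold), the 2 largest changes of the 10. SQSTM1 went from 207.314 to 364.275 FPKM (1.76-fold), FTL from 233.557 to 406.432 FPKM (1.74-fold) and SRXN1 from 28.8733 to 50.9491 FPKM (1.76-fold). MRNIP, which overlaps SQSTM1, went from 28.75 to 40.76 FPKM, and its part in the SQSTM1 ratio was not tested. FTH1 went from 5965.33 to 8296.27 FPKM (1.39-fold), NQO1 from 157.753 to 228.801 FPKM (1.45-fold), and HMOX1 from 10.1468 to 11.5075 FPKM, a log2 ratio of 0.18 whose interval spanned 0 (-0.16 to 0.54).

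XY018 and GSK805 at 2.5 µM for 24 h in MDA-MB468 were set side by side over the 10 genes, each against its own vehicle. The log2 ratio was larger with XY018 for 5 genes, by 1.42 (1.36 to 1.48) for SQSTM1, 1.29 (1.19 to 1.39) for FTL, 1.05 (1.03 to 1.07) for FTH1, 0.67 (0.27 to 1.06) for HMOX1 and 0.37 (0.26 to 0.48) for GCLC. It was larger with GSK805 for 4 genes, with differences (XY018 minus GSK805) of -0.42 for GCLM, -0.44 for TXNRD1, -0.46 for NQO1 and -0.53 for NFE2L2. For SRXN1 the interval of the difference was -0.092 to 0.25. These intervals, by the normal approximation, cover counting error in 4 libraries. The tables differ in gene models as well as in compound, so compound and table cannot be told apart. Of the 5 genes higher in all 3 comparisons with XY018 in this line, 4 were higher with GSK805 as well (SQSTM1, FTL, GCLC and SRXN1), beside 288 of 854 among all genes (33.7%).

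The ratio of the ferritin chains differed between the tables, also between the MDA-MB468 vehicles, and moved with XY018 in MDA-MB468. Line and table cannot be told apart in these levels. FTH1 over FTL was between 1.81 and 1.90 in the 5 HCC70 libraries. In the first MDA-MB468 set it was 15.7 with vehicle and with ATV, 11.2 with XY018 at 1.25 µM, 10.6 at 2.5 µM and 10.8 with both, since FTL changed by more than FTH1. In the GSK805 set it was 25.5 with vehicle and 20.4 with GSK805. GCLC over GCLM was between 0.61 and 0.85 in HCC70. It went from 1.45 with vehicle and 1.76 with ATV to 2.86, 2.83 and 3.08 in the 3 MDA-MB468 libraries with XY018, and from 2.76 to 3.10 with GSK805.

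**Figure D4:**
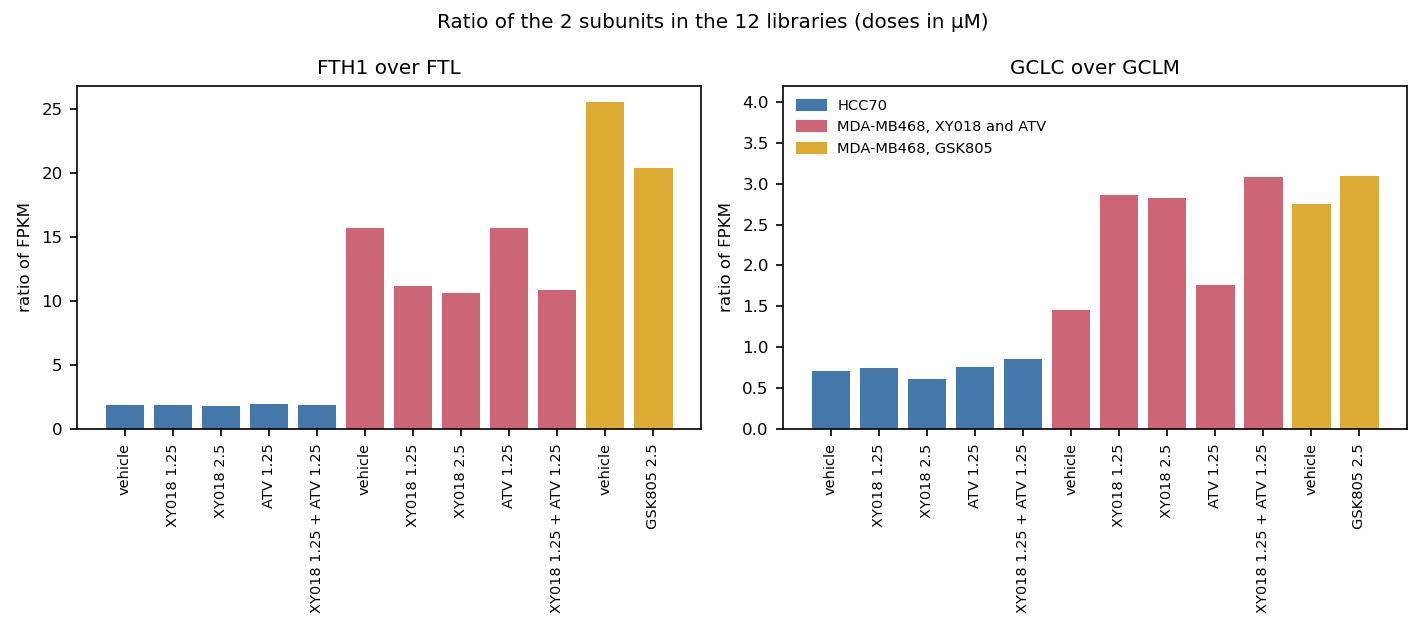
Ratio of FPKM of FTH1 to FTL (left) and of GCLC to GCLM (right) in the 12 libraries (linear axes from 0, 1 bar a library, coloured by table, no error bars). In MDA-MB468 the ferritin ratio falls from 15.7 to between 10.6 and 11.2 with XY018, while the ligase ratio goes from 1.45 to between 2.83 and 3.08.

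Ferritin has many processed pseudogenes with nearly the same sequence, so reads can be divided among copies. The GSK805 table lists 25 names of the FTH1P kind, 14 of them at 1 FPKM or above, with a summed level of 4821.94 FPKM with vehicle and 6466.07 FPKM with GSK805, the highest being FTH1P2 (899.05 and 1202.62 FPKM). It lists 16 FTLP names, summed to 219.31 and 409.47 FPKM and led by FTLP3 (181.3 and 345.82 FPKM). With the pseudogenes added, the log2 ratio with GSK805 was 0.45 for FTH1 and 0.85 for FTL. The other 2 tables list FTH1P18 alone, at no more than 0.26 FPKM, so the levels of FTH1 and FTL are uncertain across tables.

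Among 9875 genes at 1 FPKM or above in all 12 libraries, the 9 log2 ratios were compared with those of SQSTM1. By mean absolute difference the nearest 3 were HERPUD1 (0.11), AKNA (0.14) and KLF4 (0.22). The median over all genes was 0.997, and 105 genes were under 0.5. The 3 were picked as the smallest values, so their place below the median was bound to hold and shows no special likeness. HERPUD1, a component of endoplasmic reticulum-associated degradation, had log2 ratios of 0.61 in HCC70 and 2.08 in MDA-MB468 with XY018 at 2.5 µM.

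The other genes of the pathway were taken from 8 lists of 94 genes. Of the 10 genes that control NRF2 or share its sites, 3 were higher by 1.5-fold in MDA-MB468 with XY018 at 2.5 µM and 0 lower, beside 14.1% and 14.4% of all genes: the small MAF partners MAFF (18.61 to 43.02 FPKM, log2 ratio 1.20) and MAFG (8.84 to 17.23 FPKM, 0.95), and the related factor NFE2L1 (39.07 to 69.1 FPKM, 0.82). In HCC70 with XY018 at 2.5 µM MAFF alone passed (6.6 to 12.06 FPKM, 0.86), where 2.62% of all genes were higher, and with GSK805 none did (17.6%). KEAP1 stayed within 1.5-fold throughout, at 59.05 FPKM with vehicle and 71.18 FPKM with XY018 at 2.5 µM in MDA-MB468. BACH1, the repressor, passed only with both compounds in MDA-MB468 (4.98 to 8.07 FPKM, 0.69).

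Of 11 genes of glutathione synthesis and use compared, 2 were higher and 1 lower in MDA-MB468 with XY018 at 2.5 µM, close to the 14.1% and 14.4% of all genes. GPX4, which reduces lipid peroxides, went from 197 to 333.9 FPKM (log2 ratio 0.76) and the glutaredoxin GLRX from 5.54 to 9.74 FPKM (0.80), while GGT1, which cleaves extracellular glutathione, fell by 1.02 on the log2 scale. The cystine transporter SLC7A11 was at 3.51 and 3.48 FPKM there, and passed only with GSK805 (1.8 to 4.371 FPKM, log2 ratio 1.23), as did its partner SLC3A2 (356.1 to 704 FPKM, 0.98). GPX3 (4.003 to 1.254 FPKM, -1.60) and GGT1 (-0.68) were lower with GSK805. There 17.6% of all genes were higher and 16.6% lower. CHAC1, which degrades glutathione, passed in HCC70 at 2.5 µM (9.28 to 18.3 FPKM, 0.97).

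Of 10 thioredoxin and peroxiredoxin genes compared, 0 were higher in any of the 9 comparisons, where between 1.37% and 17.6% of all genes were higher. In MDA-MB468 2 were lower with XY018 at 2.5 µM, 4 with XY018 and ATV together and 3 with GSK805, where 14.4%, 12.1% and 16.6% of all genes were lower. PRDX2, a cytosolic peroxiredoxin, went from 310 to 170.2 FPKM with XY018 (log2 ratio -0.86) and from 257 to 163.9 FPKM with GSK805 (-0.65), and PRDX3, its mitochondrial relative, had log2 ratios of -0.62 and -0.59. PRDX5 had log2 ratios of 0.34 with XY018 and -0.44 with GSK805, both within 1.5-fold. Of 6 genes that supply NADPH, none passed in the XY018 and ATV tables, where between 1.37% and 14.1% of all genes were higher and between 0.794% and 14.4% lower, and IDH1 was lower with GSK805 (-0.74), beside 16.6% of all genes. SOD2, the mitochondrial superoxide dismutase, was at 65.7 FPKM with vehicle and 212.9 FPKM with XY018 at 2.5 µM in MDA-MB468 (1.69), while SOD1 was lower (-0.60).

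Of 19 genes of detoxification and export compared in MDA-MB468, 5 were higher and 1 lower with XY018 at 2.5 µM, where 14.1% of all genes were higher and 14.4% lower. With GSK805, 8 were higher and 1 lower, beside 17.6% and 16.6% of all genes. OSGIN1 went from 11.32 to 21.65 FPKM with XY018 (log2 ratio 0.93) and from 8.311 to 16.9 FPKM with GSK805 (1.01). AKR1C1 and AKR1C2, aldo-keto reductases so alike that their reads may be divided, passed with GSK805 (0.90 and 0.91) and with XY018 and ATV together (0.80 and 0.83), and not with XY018 at 2.5 µM (0.33 and 0.38). MGST2 was the gene lower in both (-1.18 and -0.65). In HCC70, 0 were higher and 3 of 18 lower with XY018 at 2.5 µM (2.62% and 3.25% of all genes), among them AKR1C2 (21.5 to 11.48 FPKM, -0.90) and UGT1A6, which shares exons with other UGT1A genes (54.91 to 29.86 FPKM, -0.88). UGT1A6 was among the 5 higher genes in MDA-MB468, at a low level (1.48 to 4.38 FPKM, log2 ratio 1.504).

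Of 20 iron and heme genes outside ferritin compared in MDA-MB468 with XY018 at 2.5 µM (14.1% of all genes higher, 14.4% lower), 1 was higher, the biliverdin reductase BLVRB (90.34 to 197 FPKM, log2 ratio 1.12), and 3 were lower: the heme transporter SLC48A1 (-1.10), the iron importer SLC11A2 (-0.71) and the metallothionein MT2A (-0.67). TFRC, the transferrin receptor, was at 38.64 and 41.01 FPKM, NCOA4, the receptor for ferritin autophagy, at 68.25 and 55.23 FPKM, and IREB2, an iron regulatory protein, at 8.24 and 7.54 FPKM. With GSK805 TFRC went from 190.5 to 75.09 FPKM (-1.34) and IREB2 from 14.92 to 27.13 FPKM (0.86), the only gene of the list higher (17.6% of all genes), and 7 of 21 were lower (16.6%), MT2A by the most (1946.39 to 437.4 FPKM, -2.15). The iron exporter SLC40A1 was lower in HCC70 with XY018 at 2.5 µM (5.98 to 3.79 FPKM, -0.64) and under 1 FPKM in the first MDA-MB468 set.

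Of 6 autophagy receptors and LC3-family genes, 2 were higher in MDA-MB468 with XY018 at 2.5 µM, beside 14.1% of all genes. They were MAP1LC3B (42.48 to 118.9 FPKM, log2 ratio 1.48) and OPTN (17.56 to 29.82 FPKM, 0.76). NBR1 and CALCOCO2 were just under the threshold (log2 ratios 0.582 and 0.5813 against 0.585). With both compounds 4 were higher, beside 13.1% of all genes. None passed in HCC70, where at most 4.38% of all genes were higher in a comparison, or with GSK805 (17.6%), where MAP1LC3B was at 32.22 and 33.67 FPKM.

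**Figure D5:**
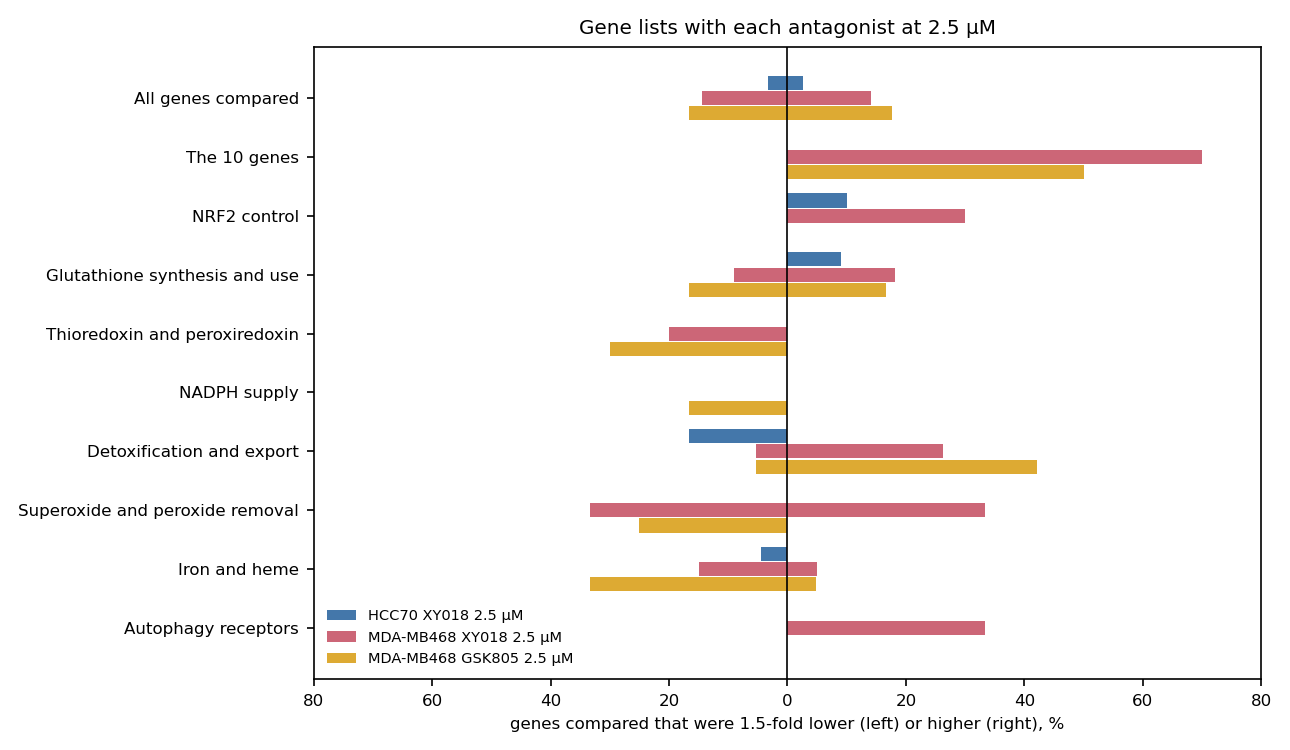
Share of the genes compared in each list (percent) that were at least 1.5-fold lower (left of 0) or higher (right of 0) than vehicle, with all genes compared in the top row, with XY018 2.5 µM in HCC70 and MDA-MB468 and with GSK805 2.5 µM in MDA-MB468. The 10 genes have 7 higher with XY018 and 5 with GSK805 in MDA-MB468 and none in HCC70, against 14.1%, 17.6% and 2.62% of all genes compared.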

How the data were processed

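RNA from 12 cultures, 1 library each, was prepared with an unstranded TruSeq kit and, per the labels and the study's methods, mapped to GRCh37/hg19 with BWA and Bowtie and quantified with Cufflinks. The values deposited by the authors, in 3 separately normalized tables whose headers name no unit, were read as FPKM, from the Cufflinks step and the spacing of low values; depths and intervals rest on this reading, and versions are not given in the sources used here. For each symbol the entry with the highest summed FPKM was kept. Log2 ratios were formed with a pseudocount of 0.1 FPKM over genes at 1 FPKM or above in a library of the pair and called at 1.5-fold. The fold and depth calculations were tested on simulated data. The depth fit could take a fixed length off each transcript, and took 200 bases in both libraries of the GSK805 set. The simulated counts and the fragment numbers used full lengths, so the test did not cover this. The intervals of that set may be too narrow. Named were all 10 genes, 7 regulators, and the 3 profiles nearest to SQSTM1. From each list, up to 3 genes with the largest change at 5 FPKM or above in 3 comparisons were candidates, and not all of them were named. GPX3 and PRDX5 were named outside this rule. BEST1 and MRNIP were added as protein-coding genes with overlapping exons on the other strand. The genes and lists were chosen with earlier results of these data known. Python 3.11.15, pandas 2.3.3 and SciPy 1.17.1 were used.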

Additional observations from a re-analysis of the deposited data

Results flagged for a closer look

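Of 127 genes examined (the 10 genes, the 94 of the other lists, the 20 markers and the 3 nearest profiles), 9 were at 1 FPKM or above in a library of each line, below vehicle in all 3 libraries with XY018 of one line and above it in all 3 of the other, and past 1.5-fold at 2.5 µM in at least 1 line. The difference was not tested. Over all 10749 genes compared in the 6 libraries with XY018, 605 met the same terms (5.63%, or 20.2% of the 2993 genes past 1.5-fold at 2.5 µM in at least 1 line), and of the 10 genes described above, 3 of the 7 past 1.5-fold did. For 6 of the 9 below, at least 1 of the 6 ratios had a counting interval that spanned 0; the exceptions were AKR1C2, UGT1A6 and CD14. As MDA-MB468 minus HCC70 log2 ratio at 2.5 µM it was 1.93 for GCLC (1.71 and -0.22), 0.76 for GCLM (0.74 and -0.014), 1.11 for SRXN1 (0.89 and -0.21), 1.28 for AKR1C2 (0.38 and -0.90), 2.38 for UGT1A6 (1.504 and -0.88), 1.21 for OSGIN1 (0.93 and -0.28), 0.68 for TRIM16 (0.59 and -0.088), -0.89 for MT2A (-0.67 and 0.23) and -2.58 for CD14 (-1.27 and 1.30). UGT1A6 did not pass 4.57 FPKM in MDA-MB468 with XY018, from 1.48 FPKM with vehicle.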

How the results depend on the processing

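Most reported counts of the 10 genes are 0. A count of 0 cannot fall and a 2-fold threshold cannot raise it, so the next tally says little about stability. Of 128 counts of the 10 genes under other settings, 124 stayed within 1.5 times the reported count. The other 4 were counts of genes higher: with each pair rescaled to a median log2 ratio of 0, 1 gene passed in HCC70 at 2.5 µM XY018 (SQSTM1); with a 2-fold threshold, 4 passed in MDA-MB468 with XY018 at 2.5 µM and 2 with GSK805; and with GSK805 set against the vehicle of the XY018 and ATV table, 8 passed. That vehicle moved the median log2 ratio of all genes to 0.58, with 49.7% of genes higher, so ratios across the tables were not used. No called ratio changed sign under any of these settings, which were 2 other pseudocounts, 2 other filters, the rescaling, the threshold and summed entries. No paired analysis was possible because the labels carry no replicate numbers; a fit with the 2 lines as blocks, which would treat the lines as replicates, was not run. Depth limits HMOX1 most: at 131 to 583 estimated fragments its ratios have the widest intervals of the 10 in MDA-MB468. Culture-to-culture spread is not measured.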
